A study of Mus musculus with 139 samples.

Results

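Inner hair cells (IHCs) from the middle of the mouse cochlea were set against IHCs from its apex. Membership followed the labelled region and cell type: 34 middle IHCs and 34 apical IHCs, together 68 of the 139 single cells of the series. The remaining cells were 19 basal IHCs and 23 middle, 21 apical and 8 basal outer hair cells (OHCs). All came from cochleae at postnatal days 14 to 16, and the labels used here give no strain, genotype, treatment, sex or animal for any group. The study asked how hair cells differ along the cochlear spiral.

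IHCs are the sensory cells that turn vibration into transmitter release onto the auditory nerve, while OHCs amplify the vibration mechanically. The spiral is tuned along its length, with low frequencies at the apex and higher ones toward the base, and hearing begins shortly before the age sampled here. In that period IHCs lose their efferent contacts and spontaneous action potentials, gain fast potassium currents and sharpen the coupling of calcium entry to vesicle release at their ribbon synapses. Calcium buffers, ion channels, synaptic proteins and transcription factors are the gene classes through which position along the spiral is usually described.

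Because no animal is named, each group counted as 1 sample. The counts of its cells were summed and expressed as CPM, counts scaled to a common library size, and replicate error could not be estimated for any difference, so none carries a p-value. CPM is not corrected for gene length, so levels are compared between groups and not between genes. A difference is log2 of the ratio of middle to apical CPM after adding 1 CPM to each, which understates the difference of low genes. A gene counted as higher or lower at 2-fold or more. The sum of 34 cells cannot tell a gene present in more of the cells from one at a higher level in each, so per-cell values stand beside it. The 95% Poisson intervals printed beside some levels cover counting error only.

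Total counts ran from 489277 to 13322238 in middle cells (sum 199944360) and from 103101 to 11003439 in apical cells (sum 142506012). The median number of detected genes was 6256 in middle and 5506 in apical cells. Title numbers, whose meaning is not given, split the cells into a higher series above 100 (13 middle and 17 apical cells) and a lower series of 100 or less (21 middle and 17 apical cells). The lower series was shallower, with median totals of about 3461680 in middle and 2121050 in apical cells, against 7554360 and 4820410 in the higher series. Otof was below 10 CPM in 2 middle and 3 apical cells, and more than 13000 genes were detected in 2 middle and 1 apical cells. A pair of apical cells carried the title number 17, and 1 of the titles had a suffix. Their totals were 103101 and 3478864 counts, so the columns were not identical. They had 2135 and 10188 detected genes, of which 1039 were found in both. Whether they came from 1 library or 1 cell was not tested.

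Most cells held Otof, the main marker of their label, and 5 did not, while other IHC markers were found in fewer cells. Otof, the calcium sensor of vesicle release in IHCs, was at 100 CPM or more in 32 of 34 middle and 31 of 34 apical cells. Atp2a3, whose protein pumps calcium into the endoplasmic reticulum, reached that level in 31 cells of each group, as did the nuclear receptor gene Rorb. In the higher series Rorb reached it in all 17 apical cells, including those below 10 CPM of Otof, so it does not by itself mark an IHC. Slc7a14, also listed as an IHC marker, reached it in 20 middle and 19 apical cells. Otof ran from 3.13 to 8928 CPM in middle cells with a median of 3204, and from 0 to 18826 CPM in apical cells with a median of 4120. The ranges overlapped almost fully and the pooled difference was −0.66. Slc17a8, the vesicular glutamate transporter of IHCs, was at 100 CPM or more in 24 middle and 22 apical cells. It had a median of 319 CPM in middle and 164 CPM in apical cells, with a pooled difference of 0.85. The summed level of the 13 IHC markers had nearly equal medians, 8037 CPM in middle and 7979 CPM in apical cells. The series differed in this. Above title number 100 the median was 8810 CPM in middle and 7032 CPM in apical cells, and up to it 5721 and 7983 CPM. Otof was at 1000 CPM or more in 13 of 13 middle and 15 of 17 apical cells above title number 100. Up to it, 14 of 21 middle and 16 of 17 apical cells reached that level. Myo7a, the hair cell myosin of the stereocilia, was sparse in both groups, at 10 CPM or more in 10 middle and 10 apical cells.

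The 5 cells below 10 CPM of Otof differed in what else they held. Apical cell 8, with Otof at 0.984 CPM, held Bmp3 at 7524 CPM, Ocm at 1523 CPM and Slc26a5 at 133 CPM, and had the highest sum of OHC markers of all 68 cells, 13163 CPM. Apical cell 18, with 0 counts of Otof, had the highest sum of supporting cell markers, 16375 CPM. Apical cell 22 also had 0 counts of Otof, but its total of 103101 counts was the lowest of the 68 cells. Its OHC markers summed to 126 CPM and its supporting cell markers to 834 CPM. Middle cells 14 and 30 held Otof at 5.46 and 3.13 CPM, and cell 30 had the highest sum of neuron and glia markers, 19066 CPM. All 5 stayed in the groups as labelled. Without them, 88 of 90 genes past 2-fold among those followed stayed past it in the same direction. The others were Ocm, at −0.98 against −1.09 with all cells, and Gjb6, at −0.96 against −1.01. Of the genes named below, Whrn (4.07), Cacnb2 (2.36), Kcnc2 (1.49), Mapk8ip3 (−2.04), Iigp1 (−5.64) and Bmp3 (−6.57) moved by over 1.5-fold without the 5 cells, and the median of the calcium list was 0.13.

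Of 11183 genes with at least 5 CPM in either group, 3601 (32.2%) were at least 2-fold higher in middle IHCs and 3124 (27.9%) at least 2-fold lower. The median over all genes was 0.10. A 2-fold difference was therefore common, and the series offer a harder comparison because they share no cells. Taken apart, 1624 genes were past 2-fold in the same direction in both series and 1640 in opposite directions, and across the 11183 genes the differences of the series had a Pearson correlation of −0.00697 and a Spearman correlation of −0.00806. Genes are not independent of each other, and in sparse libraries single cells carry much of a gene's sum. In the higher series alone 30.4% of genes were past 2-fold higher and 31.1% lower, and in the lower series alone 25.5% higher and 26.3% lower. Being past 2-fold pooled and in both series was met by 805 genes higher in middle (7.2%) and 800 lower (7.15%). When the mean of single cells had to be past 2-fold as well, 764 (6.83%) and 714 (6.38%) were left. Agreement of a gene between the series is given below as a description of that gene, since over all genes it was as frequent as disagreement. Of the 35 gene lists, 22 had medians of opposite sign in the series. Where a pair of values is given for the series, the one for title numbers above 100 comes first.

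**Figure D1:**
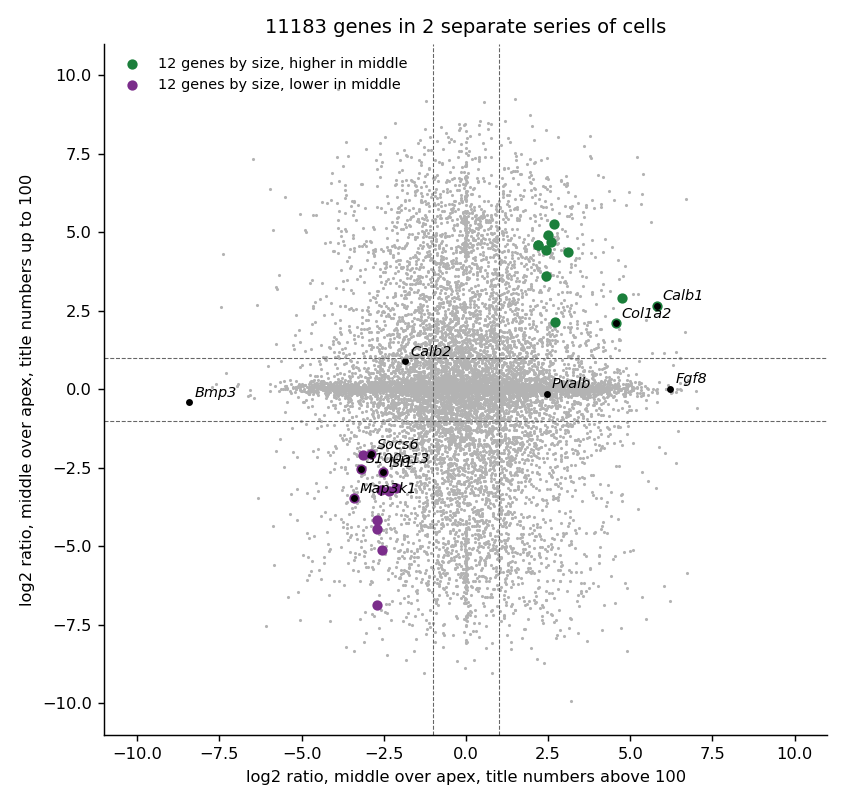
Each point is 1 of 11183 genes, with the log2 ratio of middle to apical IHCs in cells with title numbers above 100 on the x axis and in cells with title numbers up to 100 on the y axis; dashed lines mark 2-fold. Green and purple points are the 12 largest by the size rule in each direction, which lie in opposite corners because the naming rule required both series, while the cloud shows no common slope.

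Calcium buffer genes differed in both directions. Calb1, on chromosome 4 (15881264 to 15908064, plus strand, GRCm38), encodes the mobile buffer calbindin-D28k. It had a lowest, median and highest level of 0, 1.70 and 1945 CPM in middle cells and of 0, 0 and 291 CPM in apical cells. It was at 10 CPM or more in 15 middle cells and 1 apical cell, and all 13 middle cells of the higher series were among the 15. Pooled it stood at 483 CPM (480 to 486) in middle and 7.37 CPM (6.94 to 7.82) in apical IHCs, a difference of 5.85, with 5.81 in the higher and 2.66 in the lower series. That 1 apical cell held 99.2% of the apical counts, and without it the difference was 8.83. In the lower series, levels were low in both groups, at 5.82 CPM in middle and 0.0754 CPM in apical cells.

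Pvalb, which encodes the slow buffer parvalbumin, followed the same pattern in the higher series alone. Its lowest, median and highest levels were 0, 9.99 and 691 CPM in middle cells and 0, 4.75 and 266 CPM in apical cells, so the ranges overlapped. The difference was 2.32 pooled, 2.46 for title numbers above 100 and −0.13 for those up to 100, in which it stood at 22 CPM in middle and 24.2 CPM in apical cells. Calb2, which encodes calretinin, an abundant buffer of rodent IHCs, went the other way. It ran from 0 to 1574 CPM with a median of 34.4 in middle cells and from 0 to 3327 CPM with a median of 204 in apical cells. It was at 10 CPM or more in 21 middle and 33 apical cells. The difference of −1.45 was −1.86 above and 0.90 up to title number 100, so its direction was not shared.

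S100a13, a small calcium-binding protein tied to unconventional secretion, was lower in middle cells in both series. It had lowest, median and highest levels of 0, 0 and 130 CPM in middle cells and 0, 2.36 and 659 CPM in apical cells. The groups overlapped at the low end, and 7 middle against 14 apical cells were at 10 CPM or more. Pooled, 9.13 CPM (8.74 to 9.54) stood against 77.7 CPM (76.3 to 79.1), a difference of −2.96, with −3.20 and −2.52 in the series. The apical maximum was in cell 18, which had 0 counts of Otof, and without the 5 cells low in Otof the difference was −2.77. In the 7 apical cells with Kcnj16 at 1000 CPM or more, described below, S100a13 ran from 74.8 to 659 CPM. These cells held the supporting cell marker Epyc at 959 CPM or more. Other apical cells of the higher series held at most 41.5 CPM of S100a13. In the lower series it reached 166 CPM in apical cell 21, where Epyc had 0 counts. The part of supporting cell transcripts was not tested. Sri, which encodes sorcin, was higher at 1.94 pooled and in both series (1.79 and 3.13). Of the 28 genes listed for calcium binding and transport, 25 passed the level of 5 CPM, 7 were higher, 7 lower and the median was −0.09. These counts were near the shares of all genes, 32.2% higher and 27.9% lower. In both series 2 were higher, Calb1 and Sri, and 1 lower, S100a13.

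**Figure D2:**
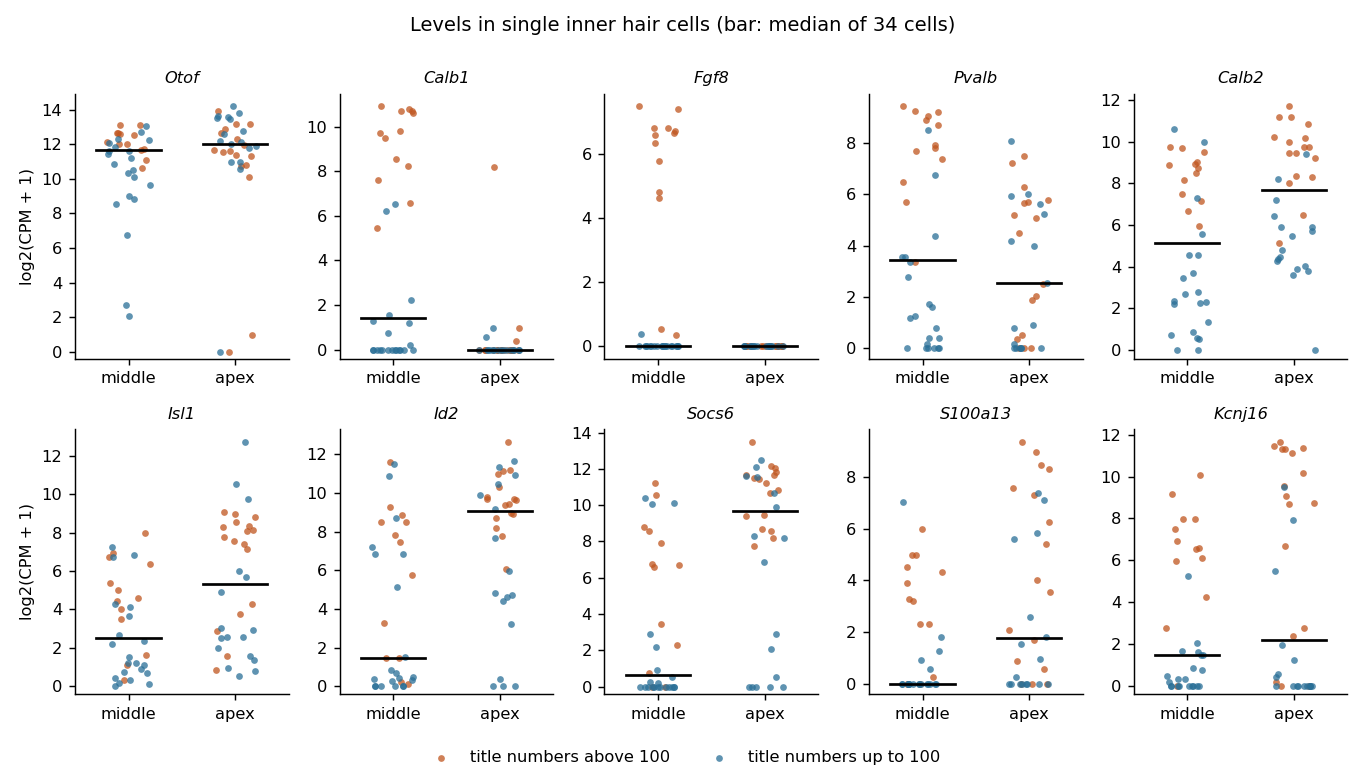
Levels of 10 genes in single IHCs, as log2(CPM + 1), with middle cells on the left and apical cells on the right of each panel, the title-number series by colour and the median of 34 cells as a bar. Otof overlaps between the groups, Calb1 and Fgf8 mark middle cells with title numbers above 100, and Id2 and Socs6 have most apical cells above most middle cells.

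Among the 13 IHC markers 5 were higher and 3 lower, beside 32.2% and 27.9% of all genes, with a median of 0.64. None was past 2-fold in both series in either direction. Fgf8, on chromosome 19 (45736798 to 45742915, minus strand), encodes a fibroblast growth factor that IHCs secrete toward developing pillar cells. It ran from 0 to 182 CPM in middle cells, with a median of 0, and had 0 counts in all 34 apical cells. The middle cells at 10 CPM or more were 11 of the 13 in the higher series and 0 of the 21 in the lower, and all 11 also held Calb1 at 10 CPM or more. The pooled middle level of 45 CPM (44.1 to 45.9) was at least 2224-fold higher than the 0.0202 CPM to which 3 counts over the apical group would correspond. In the lower series it was at 0.0143 CPM in middle cells, so the contrast rests on the 13 cells of the higher series. Kcna10, a cyclic nucleotide-regulated potassium channel, was the lowest IHC marker at −3.50, with −3.90 above and 1.52 up to title number 100.

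Transcription factor genes of hair cells were more often lower than higher in middle IHCs. Of 36 listed, 30 passed, and 12 were lower and 4 higher, beside 27.9% and 32.2% of all genes. The list median was −0.46 (−0.76 above and −0.42 up to title number 100). Past 2-fold pooled and in both series, 7 were lower (Rfx3, Rfx7, Eya1, Isl1, Nr2f2, Id2 and Id3) and 1, the homeobox gene Barhl1, was higher. All genes together met that rule at 7.15% for lower and 7.2% for higher.

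Isl1 encodes a LIM homeodomain factor of developing hair cells and neurons and lies on chromosome 13 (116298281 to 116309689, minus strand). Its lowest, median and highest levels were 0, 4.74 and 252 CPM in middle cells and 0.465, 39.4 and 6837 CPM in apical cells. The ranges overlapped, and reads were found in 33 middle and 34 apical cells. Pooled it was at 34 CPM (33.2 to 34.8) in middle and 185 CPM (183 to 188) in apical IHCs, a difference of −2.41. The series gave −2.53 and −2.64.

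Id2 and Id3 encode helix-loop-helix proteins without a DNA-binding domain that hold back basic helix-loop-helix factors. Id2 had lowest, median and highest levels of 0, 1.80 and 3060 CPM in middle cells and 0, 538 and 6435 CPM in apical cells. It was at 10 CPM or more in 15 middle and 29 apical cells. Pooled, 381 CPM (378 to 383) in middle IHCs stood against 969 CPM (964 to 974) in apical IHCs, a difference of −1.35, with −1.71 and −1.11 in the series. Of the middle counts 39.6% were in 1 cell, without which the difference was −1.99. Id3 was at 13 CPM in middle and 108.5 CPM in apical IHCs, a difference of −2.97. In the lower series both groups of Id3 were low, at 0.143 CPM in middle and 1.88 CPM in apical cells.

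Nr2f2, a nuclear receptor gene also called COUP-TFII, ran from 0 to 1929 CPM with a median of 119.3 in middle cells and from 0 to 2918 CPM with a median of 539 in apical cells. Its difference was −1.39, with −1.29 and −1.88 in the series. Its exons overlap an antisense transcript on the opposite strand, whose reads could not be told apart. Rfx3 (−1.67) and Rfx7 (−2.99) encode winged-helix factors of the family that maintains ciliary and hair cell genes, and Eya1 (−2.51) a transcriptional cofactor of inner ear development. Each of these was at 10 CPM or more in at most 10 cells of either group, and the median cell was below 1 CPM throughout. For Eya1, 1 apical cell held 52.3% of the apical counts, and without it the difference was −1.53. Barhl1 was at 10 CPM or more in 9 middle and 2 apical cells and differed by 2.50. Pou4f3, the POU factor that hair cells need to survive, did not separate the groups: its median was 34.5 CPM in middle and 50.9 CPM in apical cells, with a difference of −0.09.

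Among genes of cytokine signalling, Socs6 differed in the median cell as well as in the sum. The gene encodes a member of the suppressor of cytokine signalling family, which tags receptor complexes for degradation. It had lowest, median and highest levels of 0, 0.580 and 2400 CPM in middle cells and 0, 833 and 11590 CPM in apical cells. It was at 10 CPM or more in 11 middle and 26 apical cells, and in the higher series in all 17 apical cells. Pooled, 329 CPM (327 to 331) in middle IHCs stood against 1881 CPM (1874 to 1888) in apical IHCs, a difference of −2.51, with −2.88 and −2.06 in the series. The apical maximum was in cell 18, which had 0 counts of Otof and a supporting cell marker sum of 16375 CPM. Without the 5 cells low in Otof the difference was −2.37. Id2 and Socs6 were both at 100 CPM or more in 4 middle and 21 apical cells. Socs2, an inhibitor of growth hormone signalling, differed by −1.29, with medians of 36.2 CPM in middle and 132 CPM in apical cells, and by −0.98 without the apical cell richest in it. Stat5a, a transcription factor downstream of these receptors, was higher at 2.34, but only 7 middle and 1 apical cells were at 10 CPM or more. Of 16 genes listed for SOCS, JAK and STAT, 13 passed, 4 were higher, 5 lower and the median was −0.41. The shares of all genes were 32.2% higher and 27.9% lower.

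Of 34 ribbon synapse genes listed, 32 passed, 10 were higher and 3 lower, against 32.2% and 27.9% of all genes, so the share of higher members was near that of all genes. The median was 0.68 (0.21 and 0.79 in the series), with 8 higher and 2 lower above title number 100 and 15 higher and 10 lower up to it. The lowest was Stx1a (−3.11), which encodes a syntaxin of vesicle fusion. Past 2-fold in both series, 5 were higher: Rims2, Cacnb2, Cacna2d2, Syt4 and Gipc3. Rims2 encodes an active zone scaffold that supports calcium channels at IHC release sites. Its lowest, median and highest levels were 0, 90.1 and 2392 CPM in middle cells and 0, 0.650 and 1677 CPM in apical cells. The ranges overlapped, and 19 middle against 9 apical cells were at 10 CPM or more. Pooled, 273 CPM (270 to 275) stood against 69.8 CPM (68.4 to 71.1), a difference of 1.95, with 1.07 and 4.08 in the series.

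Cacnb2 and Cacna2d2 encode auxiliary subunits of voltage-gated calcium channels, and both were higher in middle IHCs, at 3.21 and 1.97. Cacnb2 was at 10 CPM or more in 9 middle cells and 1 apical cell, and Cacna2d2 in 12 and 8. Cacna1d, the pore-forming subunit that carries the IHC calcium current, was at 186 CPM in middle and 178 CPM in apical IHCs (0.06), but differed by −0.15 and 1.32 in the series. Syt4, a synaptotagmin of the mature ribbon synapse, differed by 2.37 but was at 10 CPM or more in 5 middle and 4 apical cells, and 1 middle cell held 41.3% of the counts. Gipc3, a PDZ protein whose loss causes deafness, was at 13.3 CPM in middle and 3.54 CPM in apical IHCs (1.66). Pclo, the giant active zone scaffold piccolo, was lower pooled (−2.36) and in both series, although the difference of its medians was 0.27.

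Potassium channel genes had a pooled median of 1.20, with 10 of 20 measured members higher and 6 lower (30 listed). Of all genes, 32.2% were higher and 27.9% lower. The list median was smaller within each series, at 0.62 in the higher and 0.30 in the lower series. In the higher series 8 members were higher and 8 lower, and in the lower series 8 were higher and 1 lower. From medians of single cells the list median was 0. Kcnab2 (2.06), a beta subunit, and the delayed rectifiers Kcnc2 (2.09) and Kcna2 (2.18) were higher in both series, each at 10 CPM or more in at most 11 middle and 4 apical cells. Kcnj16, an inward rectifier subunit, was lower in both series. It ran from 0 to 1062 CPM with a median of 1.76 in middle cells and from 0 to 3260 CPM with a median of 3.50 in apical cells. Pooled, 121 CPM (120 to 123) stood against 754 CPM (750 to 759), a difference of −2.62, and −2.53 without the 5 cells low in Otof. Kcnj16 was at 1000 CPM or more in 1 middle and 7 apical cells. In those 7 apical cells Epyc ran from 959 to 2253 CPM and the supporting cell markers summed to 4663 to 16375 CPM, and 6 of them held Otof at 1000 CPM or more. In the 1 middle cell Epyc was at 0.0917 CPM and the markers summed to 15025 CPM. The part of supporting cell transcripts in the difference was not tested. Kcnma1, the large-conductance calcium-activated channel that shapes the mature IHC receptor potential, differed by −0.29.

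Efferent synapse genes split. Chrna9, a subunit of the acetylcholine receptor that inhibits hair cells and wanes in IHCs after hearing onset, was at 10 CPM or more in 11 of 13 middle cells of the higher series. It was at that level in 0 of 21 middle cells of the lower series and in 2 apical cells. Its levels were 90.4 CPM in middle and 3.01 CPM in apical IHCs, a difference of 4.51, with 0.03 in the lower series. The partner subunit Chrna10 (−3.48) and the small-conductance calcium-activated channel Kcnn2 (−1.47) were lower, both at low levels. Without the apical cell richest in each, the apical level was 6.03 CPM for Chrna10 and 3.17 CPM for Kcnn2. The differences were then −2.80 and −0.76. Chrna10 did not keep its direction in the lower series, and it shares 1025 of its 2628 exonic bases with Art1 on the opposite strand. Of 10 listed, 7 passed, and 3 were higher and 3 lower, beside 32.2% and 27.9% of all genes. The list median was 0.41 pooled and −1.13 in the higher series.

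Genes that mark OHCs were present in part of the IHCs of both regions. Of 15 listed OHC markers 13 passed, and 7 were lower in middle IHCs and 3 higher, beside 27.9% and 32.2% of all genes. The median was −1.09. It was −1.32 above title number 100 and 0.04, over the same genes, up to it. Ocm, the OHC calcium buffer oncomodulin, had lowest, median and highest levels of 0, 1.19 and 2421 CPM in middle cells and 0, 55.8 and 2530 CPM in apical cells. It was at 100 CPM or more in 4 middle and 14 apical cells, of which 4 and 13 also held Otof at 1000 CPM or more. The pooled difference was −1.09, and without the apical cell richest in Ocm it was −0.43.

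Slc26a5, which encodes the OHC motor protein prestin, was at 100 CPM or more in 0 of 34 middle cells and 7 of 34 apical cells, all 7 in the higher series. Bmp3, a bone morphogenetic protein of the OHC list, was at that level in 0 middle and 8 apical cells, again all in the higher series. Its pooled levels were 0.0677 CPM in middle and 197 CPM in apical IHCs, and the difference was −7.53. The series gave −8.41 and −0.41, and 52.4% of the apical counts were in cell 8, whose Otof was at 0.984 CPM. Without the 5 cells low in Otof the difference was −6.57. In apical OHCs Ocm was at 5391 CPM, Slc26a5 at 697 CPM and Bmp3 at 1041 CPM. The summed OHC markers had a median of 356 CPM in middle cells (lowest 0.806, highest 3228) and 545 CPM in apical cells (lowest 2.95, highest 13163). Within each series the median was higher in middle cells, at 1541 CPM in middle and 849 CPM in apical cells above title number 100, and at 60.9 CPM in middle and 29.5 CPM in apical cells up to it. Whether transcripts of OHCs reached these libraries was not tested.

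Markers of mesenchyme and bone, many of them genes of the extracellular matrix, were more often higher than lower in middle IHCs. Of 20 listed 14 passed, and 10 were higher and 2 lower, beside 32.2% and 27.9% of all genes. The median of 2.34 (2.14 and 1.12 in the series) was the highest of the 35 lists. In both series 8 were higher (Col1a1, Col1a2, Coch, Bglap, Ibsp, Pdgfra, Bgn and Pou3f4), and 1, the proteoglycan gene Dcn, was lower. Col1a2, which encodes a chain of type I collagen, had lowest, median and highest levels of 0, 887 and 9356 CPM in middle cells and 0, 4.67 and 1610 CPM in apical cells. It was at 100 CPM or more in 27 middle and 5 apical cells. Pooled, 1289 CPM (1284 to 1293) stood against 167 CPM (165 to 169), a difference of 2.94, with 4.56 and 2.11 in the series.

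Col1a1, the partner chain, ran from 2.02 to 18897 CPM with a median of 854 in middle cells and from 0 to 1564 CPM with a median of 92.4 in apical cells, a difference of 3.24. Coch encodes cochlin, a secreted protein of cochlear fibrocytes. It was at 10 CPM or more in 19 middle and 4 apical cells and differed by 3.57, at 85.9 CPM (84.7 to 87.1) in middle and 6.30 CPM (5.90 to 6.72) in apical IHCs. The 20 markers summed to a median of 5484 CPM in middle cells (lowest 11.8, highest 24488) and 1761 CPM in apical cells (lowest 2.25, highest 10377), with 0 of the 20 at 0 counts in either group. Otof at 1000 CPM or more and Col1a2 at 100 CPM or more occurred together in 21 middle and 5 apical cells. In middle OHCs Col1a1 was at 2121 CPM and Col1a2 at 2375 CPM, and in apical OHCs at 404 and 723 CPM. The part of connective tissue transcripts in these differences was not tested.

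**Figure D3:**
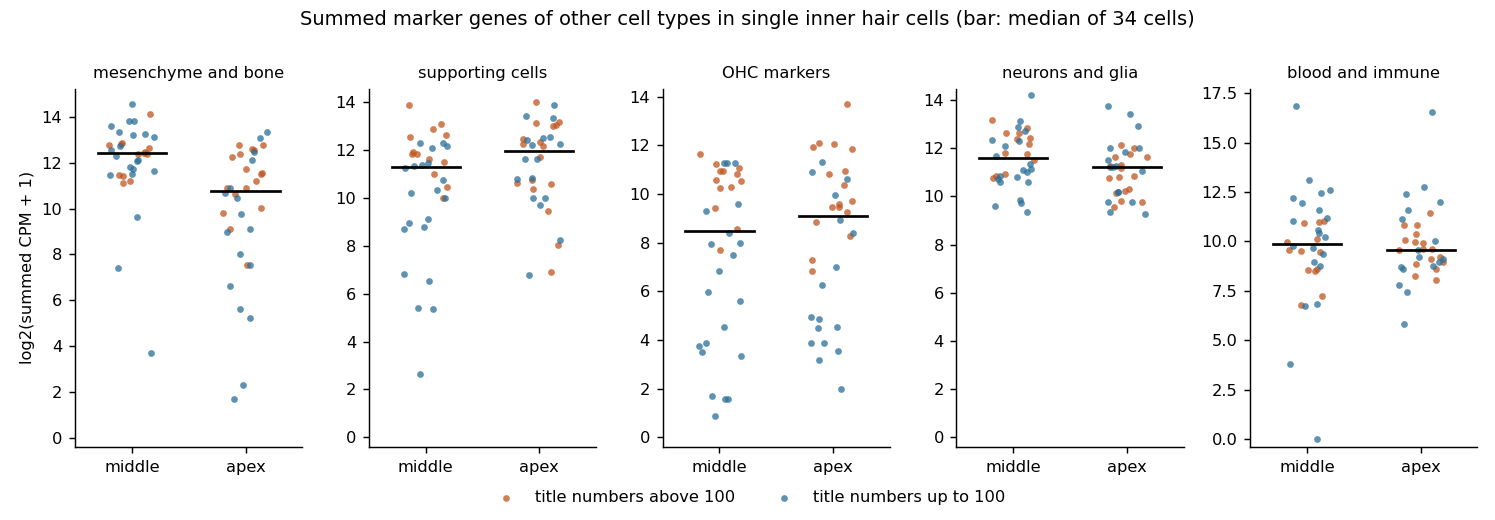
Summed CPM, as log2(summed CPM + 1), of marker genes of other cell types in single IHCs, with middle cells on the left and apical cells on the right, the title-number series by colour and the median of 34 cells as a bar. Mesenchyme and bone markers have medians of 5484 CPM in middle and 1761 CPM in apical cells, while blood markers reach 120047 CPM in 1 middle and 96132 CPM in 1 apical cell.

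Markers of supporting cells pointed both ways, as did all genes, of which 32.2% were higher and 27.9% lower. Of 25 listed 22 passed, 7 were higher and 8 lower, with a median of −0.37 (−0.14 and −0.22 in the series). Epyc, which encodes the small proteoglycan epiphycan, was the lowest, with levels in single cells of 0 to 70.3 CPM in middle cells and 0 to 2253 CPM in apical cells and a median of 0 in both. At 10 CPM or more were 4 middle and 13 apical cells. It stood at 6.83 CPM (6.49 to 7.19) against 516 CPM (512 to 520), a difference of −6.04, with −6.07 and −7.55 in the series. Epyc overlaps a noncoding gene on the opposite strand. The gap junction gene Gjb6 (−1.01), the Notch target Hes1 (−1.97), Cdkn1b (−1.10) and Anxa2 (−1.43) were also lower in both series, but without the apical cell richest in each they differed by −0.71, −0.95, −0.96 and −0.59. In both series Slc1a2 (2.43) and Fabp7 (3.19) were higher. Of the middle counts, 1 cell held 74% for Slc1a2 and 84.6% for Fabp7, and without that cell Slc1a2 differed by 0.63 and Fabp7 by 1.13. The summed markers had a median of 2535 CPM in middle and 4005 CPM in apical cells.

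Markers of neurons and glia had a median of 0.85, with 8 of 18 measured higher and 2 lower, beside 32.2% and 27.9% of all genes. The series turned, with medians of 1.07 and −0.27. Nefl (1.29) and Map2 (1.48), both of the neuronal cytoskeleton, were higher in both series. The summed markers had a median of 3093 CPM in middle and 2359 CPM in apical cells. Above title number 100 it was 4652 CPM in middle and 1861 CPM in apical cells, and up to it 2170 and 2406 CPM. Blood and immune markers (9 of 22 measured, 2 higher and 3 lower, median 0.25), the stria vascularis (7 of 14, 3 and 1, 0.03) and pericytes and endothelium (4 of 17, 1 and 2, −0.81) contributed few measured genes.

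Genes of the hair bundle, the stack of stereocilia that receives the stimulus, were mostly level. Of 30 listed 29 passed, and 7 were higher and 4 lower, beside 32.2% and 27.9% of all genes. The median was 0.12. Whrn, which encodes the scaffold whirlin at stereocilia tips and ankle links, was one exception. It had lowest, median and highest levels of 0, 3.75 and 695 CPM in middle cells and 0, 0 and 327 CPM in apical cells, and 14 middle against 5 apical cells were at 10 CPM or more. The difference was 3.41, with 2.60 and 4.70 in the series. Gpsm2, whose protein sets stereocilia length and bundle orientation, was at 354 CPM in middle and 96.2 CPM in apical IHCs, a difference of 1.87 with 1.70 and 2.18 in the series. Strc, which encodes stereocilin of OHC bundles and has a near-identical copy, was lowest (−3.66), with −0.18 in the lower series.

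The mechanotransduction complex had 8 of 10 genes measured, 3 higher and 1 lower, beside 32.2% and 27.9% of all genes. Its median was 0.02. Tmc1, the pore-forming subunit, was level when pooled, at 173 CPM in middle and 167 CPM in apical IHCs (0.05), but differed by −1.48 above and 2.24 up to title number 100. Cib2, a binding partner of the channel, was at 1341 CPM in middle and 364 CPM in apical IHCs (1.88), with −0.18 in the lower series. Its median was 204 CPM in middle and 284 CPM in apical cells, so the pooled direction was not that of the median cell. Pkhd1l1 (1.34) was higher and Tomt (−1.05) lower in both series. Tomt shares 1981 of its 2857 exonic bases with Anapc15 on the opposite strand, whose reads could not be told apart. Tip link and Usher type 1 genes (5 of 6 measured) had 2 higher and 0 lower with a median of 0.92 (0.80 and −0.18 in the series). Ankle link and Usher type 2 genes (3 of 5) had 1 higher and 1 lower, and unconventional myosins (8 of 10) 4 higher and 1 lower with a median of 1.17. Myo5a (3.05) and Myo18a (2.23) were higher in both series.

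In energy metabolism, 20 of 22 listed glycolysis genes passed, 9 were higher and 0 lower, and the median was 0.84, with 1.14 and 0.05 in the series. Above title number 100, 12 were higher and 0 lower, and up to it 5 were higher and 5 lower, beside 30.4% and 25.5% of all genes higher. The difference between the series was not tested. Ldha, a subunit of lactate dehydrogenase, was at 12.3 CPM in middle and 1.70 CPM in apical IHCs (2.30), with a median of 0 in both groups. Pfkfb2, which sets the level of an activator of phosphofructokinase, was higher in both series (2.49). Genes encoded by mitochondrial DNA had 6 of 10 measured lower and 1 higher, beside 27.9% and 32.2% of all genes. Their median was −1.32, with −2.03 above and 0.28 up to title number 100. The summed level of the 13 listed differed less, at 16225 CPM in middle and 17738 CPM in apical IHCs. Above title number 100 the median sum of single cells was 25588 CPM in middle and 26435 CPM in apical cells. Up to title number 100 it was 8576 CPM in middle and 4247 CPM in apical cells. The 1 higher gene, mt-Co1, was at 8732 CPM in middle and 2800 CPM in apical IHCs (1.64), yet its median was 1140 CPM in middle and 1942 CPM in apical cells. mt-Co3, of the same enzyme, stood at 2.71 CPM in middle and 8.13 CPM in apical IHCs; how reads with several matches were counted is not given, so levels of genes with near-identical copies are uncertain. Nuclear genes of the respiratory chain had 14 of 74 higher and 16 lower with a median of −0.12, and the citric acid cycle 7 of 18 higher and 4 lower with a median of 0.44.

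**Figure D4:**
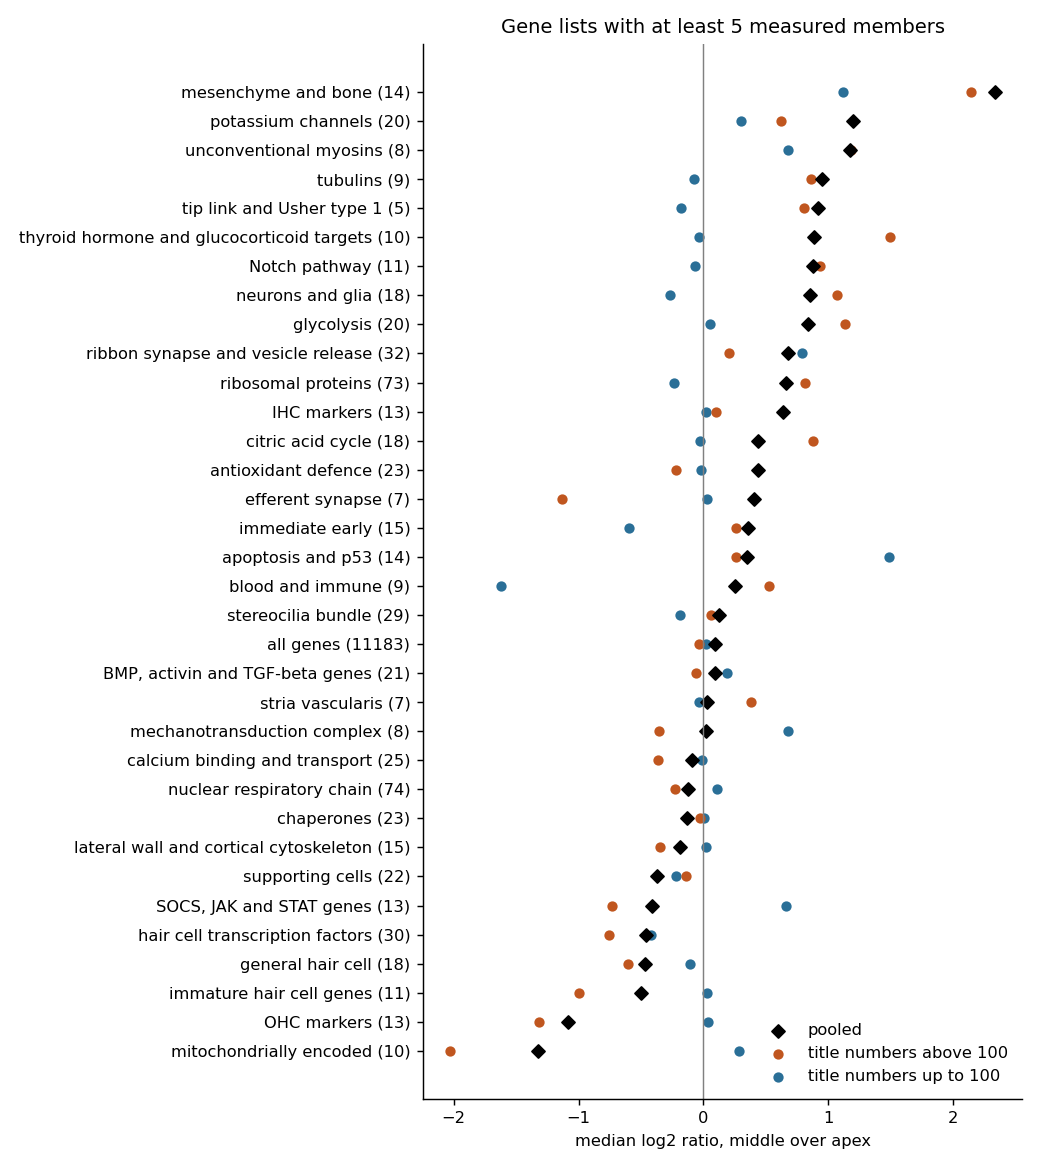
Median log2 ratio of middle to apical IHCs for each gene list with at least 5 measured members (number in brackets), pooled as black diamonds and within each title-number series as coloured points. Mesenchyme and bone markers are highest at 2.34 pooled and lie above 0 in both series, whereas mitochondrially encoded genes (−1.32) and OHC markers (−1.09) lie below 0 pooled but not in the cells with title numbers up to 100.

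The remaining lists can be given by count, as members measured, higher and lower, and the median. Beside these counts stand the shares of all genes, 32.2% higher and 27.9% lower. General hair cell genes had 18, 3, 4 and −0.47, the lateral wall and cortical cytoskeleton 15, 3, 3 and −0.19, tubulins 9, 4, 0 and 0.95, and immature hair cell genes 11, 3, 3 and −0.50. Thyroid hormone and glucocorticoid targets had 10, 4, 1 and 0.89, Notch pathway genes 11, 5, 2 and 0.87, and genes of BMP, activin and TGF-beta signalling 21, 6, 7 and 0.09. In that last group the receptor gene Acvr1 (4.29) and the secreted protein gene Fstl1 (2.60) were higher in both series and the receptor gene Bmpr2 (−3.50) lower. For Acvr1, 1 middle cell held 86.8% of the counts, and without it the difference was 1.53. Antioxidant defence had 23, 7, 3 and 0.44, chaperones 23, 5, 4 and −0.13, immediate early genes 15, 4, 3 and 0.36, apoptosis and p53 14, 6, 1 and 0.35, and ribosomal proteins 73, 28, 5 and 0.66. For ribosomal proteins the series gave 0.81 and −0.23. The immediate early genes Junb (−1.86) and Dusp1 (−1.44) were lower in both series.

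Ranked by size alone, 94 genes met the full rule of the higher kind and 82 of the lower kind, and the 12 largest of each were taken. Those higher in middle IHCs were Calb1, Col1a1, Col1a2, Coch and Whrn, described above, with Kdm4b (4.28), Cpsf2 (3.34), Ranbp10 (3.01), Ctnnd2 (2.85), Mtfr1l (2.78), Foxk2 (2.47) and Eif4h (2.35). Kdm4b encodes a histone demethylase. It ran from 0 to 138 CPM in middle cells, with 10 cells at 10 CPM or more, and reached no more than 1.75 CPM in any apical cell. Cpsf2, of the machinery that cleaves messenger RNA ends, was at 10 CPM or more in 18 middle and 4 apical cells, and its medians were 11.1 CPM in middle and 0.941 CPM in apical cells. Ctnnd2, the neural catenin gene, was at 10 CPM or more in 15 cells of each group and reached 1624 CPM in middle and 196 CPM in apical cells, while the difference of its medians was −0.63.

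Among those lower in middle IHCs were Socs6, S100a13, Kcnj16 and Isl1, with Map3k1 (−3.28), Tpp1 (−3.04), Mapk8ip3 (−2.73), Vps54 (−2.72), Rnf11 (−2.66), Sugt1 (−2.55) and Traf3ip1 (−2.19). Map3k1 and Mapk8ip3 encode a kinase and a scaffold of the JNK pathway. Map3k1 had lowest, median and highest levels of 0, 1.38 and 375 CPM in middle cells and 0, 4.17 and 2554 CPM in apical cells, pooled 37.5 and 373 CPM. Sugt1, a cochaperone of HSP90, was at 10 CPM or more in 18 middle and 25 apical cells, with medians of 14.4 CPM in middle and 157 CPM in apical cells. Rnf11, a ubiquitin ligase gene, had medians of 1.19 CPM in middle and 76.7 CPM in apical cells. Tpp1, a lysosomal peptidase gene, had medians of 0.551 and 31.7 CPM.

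To compare detection at equal depth, every cell was thinned to 500000 counts, which left 33 middle and 31 apical cells. The intervals of shares treat cells as independent draws and do not stand for replicates of a region. Predicted, ribosomal, mitochondrial and pseudogene symbols were left out of the genes measured. Of the rest, 3336 had a larger share of cells with a read in middle cells, in both series, and 938 in apical cells. Detection was thus broader in middle cells after thinning, and the genes named for them lie within that wider excess, whose cause was not tested. The 8 largest differences each way were named. Calb1 was found in 57.6% of middle cells (19 of 33, 95% Clopper-Pearson interval 39.2 to 74.5) and 9.68% of apical cells (3 of 31, 2.04 to 25.8). Armc9, a gene of cilia, was found in 54.5% of middle and 6.45% of apical cells, and Dcaf11, a substrate receptor of a ubiquitin ligase, in 66.7% and 12.9%. Adap2, Relt, Rtn4rl2, Rxra and Nat10 had shares of 45.5% to 51.5% in middle cells and of 3.23% to 9.68% in apical cells.

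In the other direction Tmem184b had the largest difference, found in 6.06% of middle and 48.4% of apical cells. Socs6 was found in 48.5% of middle cells (16 of 33, 30.8 to 66.5) and 87.1% of apical cells (27 of 31, 70.2 to 96.4). Krit1, which encodes a scaffold of endothelial junctions, was found in 42.4% of middle and 80.6% of apical cells. Cdkal1, a transfer RNA modification enzyme gene, had the same shares of 42.4% and 80.6%. Iigp1, an interferon-induced GTPase gene, was found in 3.03% of middle and 38.7% of apical cells. B4galt7, Ppwd1 and Gyg had shares of 9.09% to 33.3% in middle and 45.2% to 71% in apical cells. Ppwd1 (−0.67) and Gyg (−0.21) were under 2-fold by pooled level, while more apical than middle cells carried a read.

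**Figure D5:**
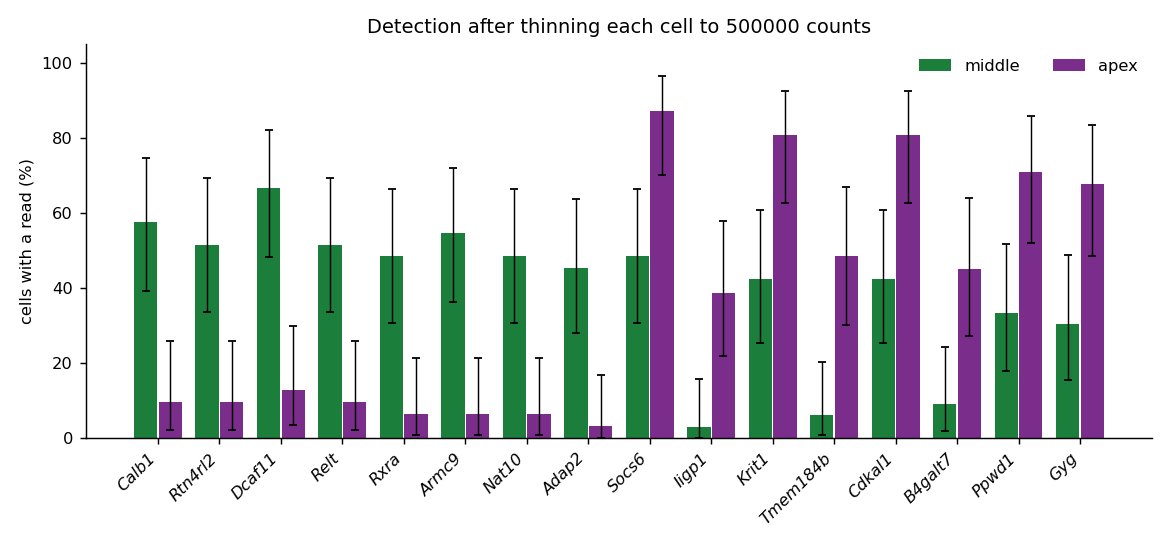
Share of IHCs with at least 1 read after thinning each cell to 500000 counts, for the 8 genes with the largest difference in each direction, middle cells left of apical cells; error bars are 95% Clopper-Pearson intervals, which cover counting error in these cells only and say nothing of variation between animals. Calb1 was found in 57.6% of middle and 9.68% of apical cells and Socs6 in 48.5% and 87.1%.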

How the data were processed

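Single-cell RNA libraries of mouse cochlear hair cells were sequenced on an Illumina instrument, per the labels' protocols. The table the authors deposited holds raw read counts, 55335 gene lines by 139 cells. Trimmomatic, HISAT2, featureCounts, Subread 1.4.6 and GRCm38 (mm10) are named, without roles, per the submitters' processing notes. How strand, multiple matches and any molecular identifiers were handled was not stated in the sources used here. Columns were matched to cells by title. Identifiers were looked up in the GENCODE annotation of GRCm38 supplied for naming (55154 matched); 181 lines had no symbol and 0.00885% of all reads counted.

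Counts were summed per group and scaled with TMM factors over the 6 groups, which matched edgeR 4.0.16 (R 4.3.3); other steps used Python 3.11.15, numpy 2.4.6, pandas 2.3.3 and scipy 1.17.1 and were tested on simulated data. Per-cell levels are CPM of the cell's own total. Genes needed 5 CPM in either group. With 1 sample a group, no test was run, and called means 2-fold or more. Members, the 35 gene lists and rules were chosen with earlier results of these data known, so they are descriptions. Genes named by size needed 10 CPM and a read in 50% of cells of the higher group, 2-fold pooled, in the mean of cells and in both series, and no cell over 25% of the counts; predicted, ribosomal, mitochondrial and pseudogene symbols were left out. The 12 with the largest smallest ratio in each direction were taken, and by detection the 8 with the largest difference in share; some results are not reported here. From each list the extremes and members past 2-fold pooled and in both series could be named, as could 20 hair cell genes. Rorb, Atp2a3 and Slc7a14 were named after their values were seen. Of 171 genes these rules reached, 45 share exonic bases with a gene on the opposite strand and 13 with one on their own strand, so such reads cannot be told apart.

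Alternatives were another scaling, equal weight per cell, fewer cells, each series alone, thinned counts, other pseudocounts and other filters. After seeing the data, cells with little Otof or very many genes, medians of cells and the cell richest in a gene were added.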

Additional observations from a re-analysis of the deposited data

How the results depend on the processing

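Of the genes followed through 18 alternatives, 90 were past 2-fold. Of these, 16 turned in at least 1 alternative and 74 in none of those run on them. A difference of 0 counted as not turned, although it has no sign. It arose with medians of single cells for Fgf8, Epyc and Ldha, whose medians were 0 in both groups. No paired analysis was possible because the result comes from no test and title numbers were not shown to pair cells. The median difference over all genes, middle against apical IHCs, 0.10 as reported, was 0.21 with plain totals, −0.19 with median-of-ratios factors, −0.0807 for title numbers above 100, −0.12 for those up to 100 (genes filtered within each series), −0.0387 as the mean of the series and −0.0409 after thinning, so a shared shift of that size lies within the choice of scaling. For genes at least 2-fold higher in middle IHCs (3601) and genes at least 2-fold lower in middle IHCs (3124), the counts were 1936 and 1662 with at least 20 CPM and 712 and 603 from medians of single cells, and the higher count was 5431 with no filter, where more genes are tested. In cells numbered up to 100 the direction turned for OHC markers (list median 0.18) and mitochondrially encoded genes (0.38), both over members past the filter there, and for Ocm (0.22), Slc26a5 (0.23), Pvalb (−0.13), Calb2 (0.90), Kcna10 (1.52), Chrna10 (0.0407), Col2a1 (−0.11) and Tmem184b (0.64). With the mean of single cells it turned for Tmem184b (0.93) and B4galt7 (0.0024), and with medians of single cells for Ctnnd2 (−0.63), Eya1 (0.0545), Pclo (0.27), Anxa2 (0.0314), Kcna10 (0.32), Strip2 (0.0807) and mt-Co1 (−0.77). Pdgfra turned when the deepest cells were left out (−0.22) and without the middle cell richest in it (−0.15). Leaving out the cell richest in a gene, in 1 group at a time, moved 50 of the 90 genes by over 1.5-fold and took 11 under 2-fold or across 0, namely Ocm, Kcnn2, Socs2, Gjb6, Hes1, Cdkn1b, Anxa2, Slc1a2, Strip2, Pdgfra and B4galt7. Leaving out the 5 cells low in Otof turned none of the 90. The causes were not tested.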

Other observations

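Basal IHC levels are set beside the middle and apical ones without a comparison, since comparisons among regions would share cells. Calb1 was at 483 CPM in middle, 0.433 CPM in basal and 7.37 CPM in apical IHCs, and Fgf8 at 45 and 2.22 CPM in middle and basal IHCs, with 0 counts in apical ones. Pvalb was at 178 CPM in middle, 558 CPM in basal and 34.9 CPM in apical IHCs. Socs6 was at 329 CPM in middle, 1594 CPM in basal and 1881 CPM in apical IHCs, with 10 of 19 basal cells at 100 CPM or more. Id2 was at 381, 16.5 and 969 CPM in the same order, and Traf3ip1 at 32, 894 and 150 CPM. Col1a2 was at 1289 CPM in middle, 1139 CPM in basal and 167 CPM in apical IHCs.

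In OHCs of the same regions Id2 was at 268 CPM in middle and 994 CPM in apical cells, Socs6 at 56.7 and 487 CPM, and Isl1 at 312 and 672 CPM. Calb1 was at 60.1 CPM in middle and 14.2 CPM in apical OHCs, and Chrna9 at 136 and 9.33 CPM. Kcnj16 stood at 139 CPM in middle and 31.5 CPM in apical OHCs, the order opposite to that in IHCs. Whether these differences differ between the cell types was not tested.

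Chaperone genes stood on both sides within 1 list. Hsph1, a nucleotide exchange factor for HSP70, was at 1.26 CPM in middle and 85.5 CPM in apical IHCs (−5.26), and Dnajb1, another HSP70 partner, at 12 and 0.0742 CPM (3.60). Both held in both series, and 1 apical cell had 59.0% of the apical Hsph1 counts.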
